A study of Mus musculus with 2 samples.

Results

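The genes Klf4, Tcfcp2l1, Prdm14 and Tbx3 encode transcription factors of naive pluripotency, the state in which mouse embryonic stem cells resemble the early epiblast. This section describes 5-hydroxymethylcytosine (5hmC) across 4 fixed intervals of the mm9 genome, 1 around each gene. The intervals were chr4:55470001-55560000 for Klf4 with its downstream enhancers, chr1:120504001-120602000 for Tcfcp2l1, chr1:13083001-13138000 for Prdm14 and chr5:120100001-120155000 for Tbx3. They were set by gene and position, with no threshold on a measured value, although earlier results of these data were known when they were chosen. Together they held 2881 of the 13025343 cytosines in the deposited table, of which 822 lay in the Klf4 interval, 749 at Tcfcp2l1, 630 at Prdm14 and 680 at Tbx3.

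The series profiled genomic DNA of E14, an established mouse embryonic stem cell line, at passage 12, with no treatment or genetic change named. Glucosylated 5hmC was cut with the endonuclease AbaSI, and the cut ends were sequenced. There were 2 libraries of 1 group, and the table gave 1 pooled read count per cytosine, so no replicate error and no test between samples could be had. The table held 176006227 reads, 38812 of them in the 4 intervals, with a median of 9 and a minimum of 2 reads per listed cytosine. An unlisted cytosine cannot be read as 0, because the sources used here do not give the rule for listing. Intervals of 95% are exact and cover counting error only, since PCR copies are not independent molecules and neighbouring sites are not independent of each other.

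5hmC is made from 5-methylcytosine by the TET dioxygenases, of which TET1 and TET2 are abundant in mouse embryonic stem cells. It is known to gather at enhancers and in gene bodies, and to be sparse at CG-rich promoters that carry little methylation. KLF4 is a zinc-finger factor of the Krüppel-like family and one of the classical reprogramming factors. TCFCP2L1, a CP2-family factor, acts downstream of LIF and STAT3 signalling in self-renewal. PRDM14 is a zinc-finger protein with a PR domain that restrains FGF signalling and de novo DNA methyltransferases. TBX3 is a T-box factor that sustains self-renewal and also acts in early lineage choice.

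Promoter sequences were examined first, because CG-rich promoters are where the least 5hmC is usually found. RefSeq's table for GRCm38.p6 held a promoter of 300 bases, from 250 before to 50 after the gene's start, for Klf4 and for Tcfcp2l1, which it lists as Tfcp2l1. The sequences are shown 5′ to 3′ on the gene's own strand, minus for Klf4 and plus for Tcfcp2l1, with every CG in capitals.

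Klf4: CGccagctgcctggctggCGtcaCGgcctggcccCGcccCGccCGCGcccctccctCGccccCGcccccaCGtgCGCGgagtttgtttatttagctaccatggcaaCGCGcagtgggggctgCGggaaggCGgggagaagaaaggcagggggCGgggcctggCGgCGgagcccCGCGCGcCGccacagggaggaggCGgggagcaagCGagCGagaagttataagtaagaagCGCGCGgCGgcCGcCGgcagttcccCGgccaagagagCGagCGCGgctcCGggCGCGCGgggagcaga

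Tcfcp2l1: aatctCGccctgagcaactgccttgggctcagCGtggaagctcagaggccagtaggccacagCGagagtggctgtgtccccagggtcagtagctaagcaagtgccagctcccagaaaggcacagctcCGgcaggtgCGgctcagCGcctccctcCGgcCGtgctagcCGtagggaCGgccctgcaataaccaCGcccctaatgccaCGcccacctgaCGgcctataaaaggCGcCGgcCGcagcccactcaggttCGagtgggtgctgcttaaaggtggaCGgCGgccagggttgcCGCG

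The Klf4 promoter held 40 CG dinucleotides, a number reached by 3.91% of the 32851 promoters in that table, whose median was 7. The Tcfcp2l1 promoter held 21, a number reached by 24.8%. Each sequence was slid along its mm9 interval on its own strand, and a placement was kept if every listed cytosine under it fell on a cytosine with the right following base. Of 89701 placements in the Klf4 interval, 25351 passed, and 22062 of these covered no listed cytosine at all. No passing placement covered more than 3 CG dyads with a listed cytosine, a dyad being the paired CG of both strands. Wherever the Klf4 promoter lies in the interval, at most 3 of its 40 CGs, or 7.5%, were therefore listed, provided that its 300 bases lie wholly within it and are the same in mm9. At Tcfcp2l1, 29245 of 97701 placements passed, 27219 of them over no listed cytosine. There, too, at most 3 of the promoter's 21 CGs could be listed, or 14.3%. By comparison, windows of the same length held a median of 1 listed dyad and up to 10 in both intervals, whatever their CG content.

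The match did not place either gene start. At Klf4, 8 passing placements covered 5 or more listed cytosines, so none stood out. At Tcfcp2l1 a single passing placement covered 5 listed cytosines, which met the criterion set for placing a start. It rested on 3 dyads, as did 3 other placements, and was not used. No gene, exon or intron is therefore assigned to the positions below, and how many CGs each window of the genome holds was not used.

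Prdm14 had the densest signal of the 4 intervals, with 188 reads per kb. Tbx3 followed with 141, Klf4 with 127 and Tcfcp2l1 with 95.2, against 72.2 over the 19 autosomes. All 4 thus lay above the autosomal mean. Set beside the other autosomal stretches of its own length, the Prdm14 interval held more reads than 90.7% of 43891, Tbx3 more than 82.9% of 43891, Klf4 more than 79.8% of 26810 and Tcfcp2l1 more than 71.0% of 24628. Within its own chromosome Prdm14 exceeded 95.7% of such stretches, and the others exceeded 77.1% to 79.6%. The order of neighbours in this ranking was not sharp at the level of 1 kb bins. The middle 50% of bins spanned 53 to 266 reads at Prdm14, 46.5 to 197 at Tbx3, 42 to 190 at Klf4 and 42 to 125 at Tcfcp2l1, and these ranges overlapped in every pair.

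The order differed when sites rather than reads were counted. Tbx3 had the most listed cytosines, 12.4 per kb, ahead of Prdm14 with 11.5, Klf4 with 9.13 and Tcfcp2l1 with 7.64. The autosomal mean was 5.32. Tbx3 made up its read density from many sites with fewer reads each than at Prdm14, a mean of 11.4 per site against 16.4. Klf4 had a mean of 13.9 and Tcfcp2l1 of 12.5, and the autosomes 13.6. Median reads per site were 12 at Klf4 and Prdm14, 10 at Tcfcp2l1 and 9 at Tbx3, the last equal to the autosomal median of 9.

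**Figure D1:**
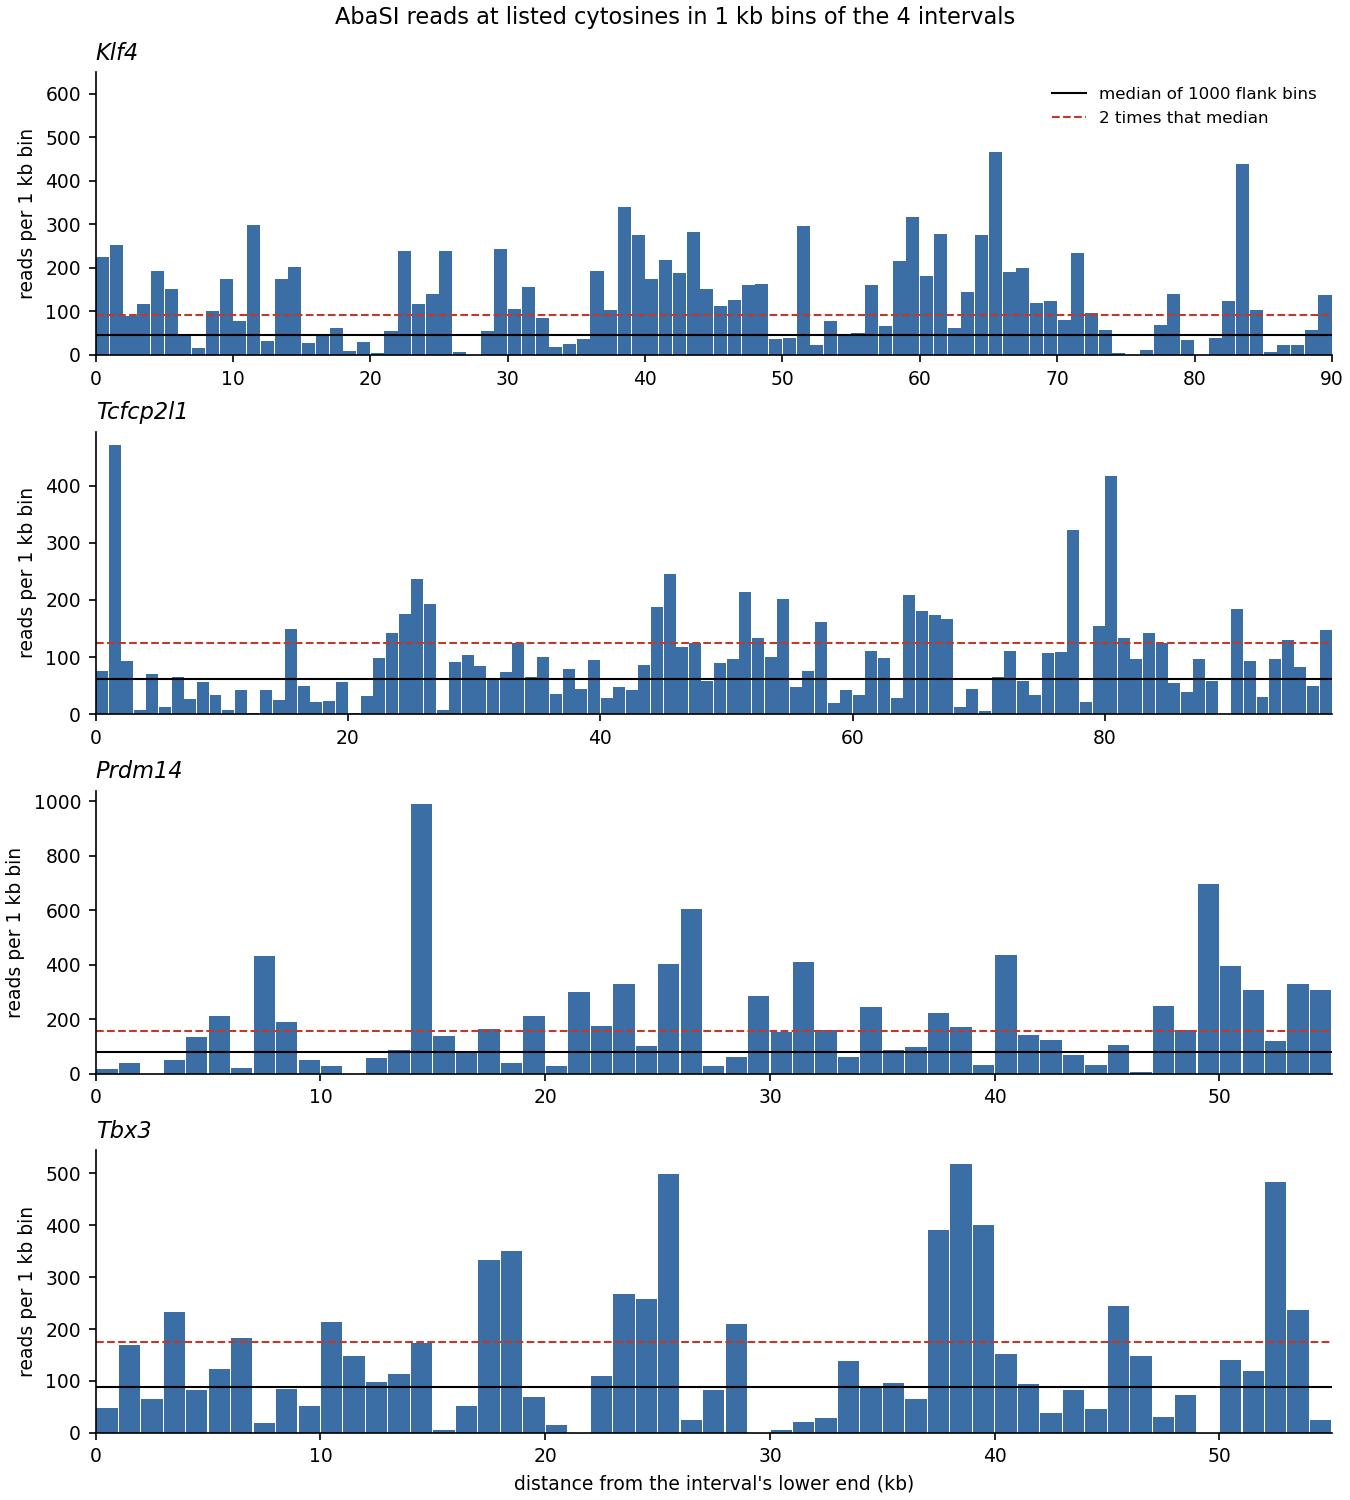
Reads summed over listed cytosines in 1 kb bins (bars, vertical axis in reads per bin) along each interval (horizontal axis in kb from its lower end), with the median of the 1000 flank bins (solid line) and 2 times that median (dashed line). The tallest bar is the Prdm14 bin with 988 reads. Each interval holds bins above the dashed line, bins close to 0 and many bins in between.

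Each interval was then compared with the 500 kb on either side, called the left flank (lower coordinates) and the right flank. Klf4 lay between unlike flanks. Its 127 reads per kb were close to the 130 of the left flank and far above the 43.3 of the right flank. The ratio was 0.973 against the left (0.954 to 0.993), 2.93 against the right (2.86 to 2.997) and 1.46 against both together (1.43 to 1.49). Because the Klf4 gene is on the minus strand in RefSeq, the dense left flank lies in the downstream direction and the sparse right flank in the upstream direction. In windows of 50 kb the left flank ran from 76.9 to 250 reads per kb, with 3 of 10 windows above the interval, and the right flank from 11.5 to 80.3, with 0 of 10 above it. Those 3 left windows were the farthest from the interval, with 224, 250 and 156 reads per kb. The adjoining windows held less than the interval, with 88.7 on the left and 67.9 on the right. The direction of the Klf4 comparison thus depended on the side and, on the left, on the distance.

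Tcfcp2l1 also lay between unlike flanks, with the sparser one on the left. Its 95.2 reads per kb compared with 62.5 on the left and 143 on the right. The ratio was 1.52 against the left (1.49 to 1.56), 0.664 against the right (0.650 to 0.678) and 0.925 against both (0.905 to 0.945). The left flank fell to 4.50 reads per kb in its sparsest 50 kb window, and 3 of its 10 windows exceeded the interval. Of the right windows, 9 of 10 exceeded it, up to 179 reads per kb. The left windows farthest from the interval held 5.56, 4.50, 8.84 and 35.3 reads per kb. Both adjoining windows were below the interval, with 71.7 on the left and 78.1 on the right. Here, as at Klf4, a single ratio against both flanks averaged over unlike sides, and each side was itself uneven.

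Prdm14 was above both sides. It had 188 reads per kb against 117 on the left and 125 on the right, with a ratio of 1.60 (1.57 to 1.64) and 1.50 (1.47 to 1.53), and of 1.55 against both (1.52 to 1.58). Of the 20 flank windows of 50 kb, 1 exceeded it, a left window with 233 reads per kb. The windows next to the interval were also high, with 168 reads per kb on the left and 176 on the right. The interval therefore stood at the top of a broader high stretch.

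Tbx3 was close to its surroundings. It had 141 reads per kb against 126 on the left and 140 on the right, and the ratio was 1.11 (1.09 to 1.14), 1.01 (0.982 to 1.03) and, against both, 1.06 (1.03 to 1.08). Without its 1 kb bin with the most reads, the interval had a ratio of 1.0. The adjoining windows held more, with 218 reads per kb on the left and 180 on the right. In sites per kb Tbx3 was above both flanks, with ratios of 1.25 (1.15 to 1.35) and 1.11 (1.02 to 1.197).

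**Figure D2:**
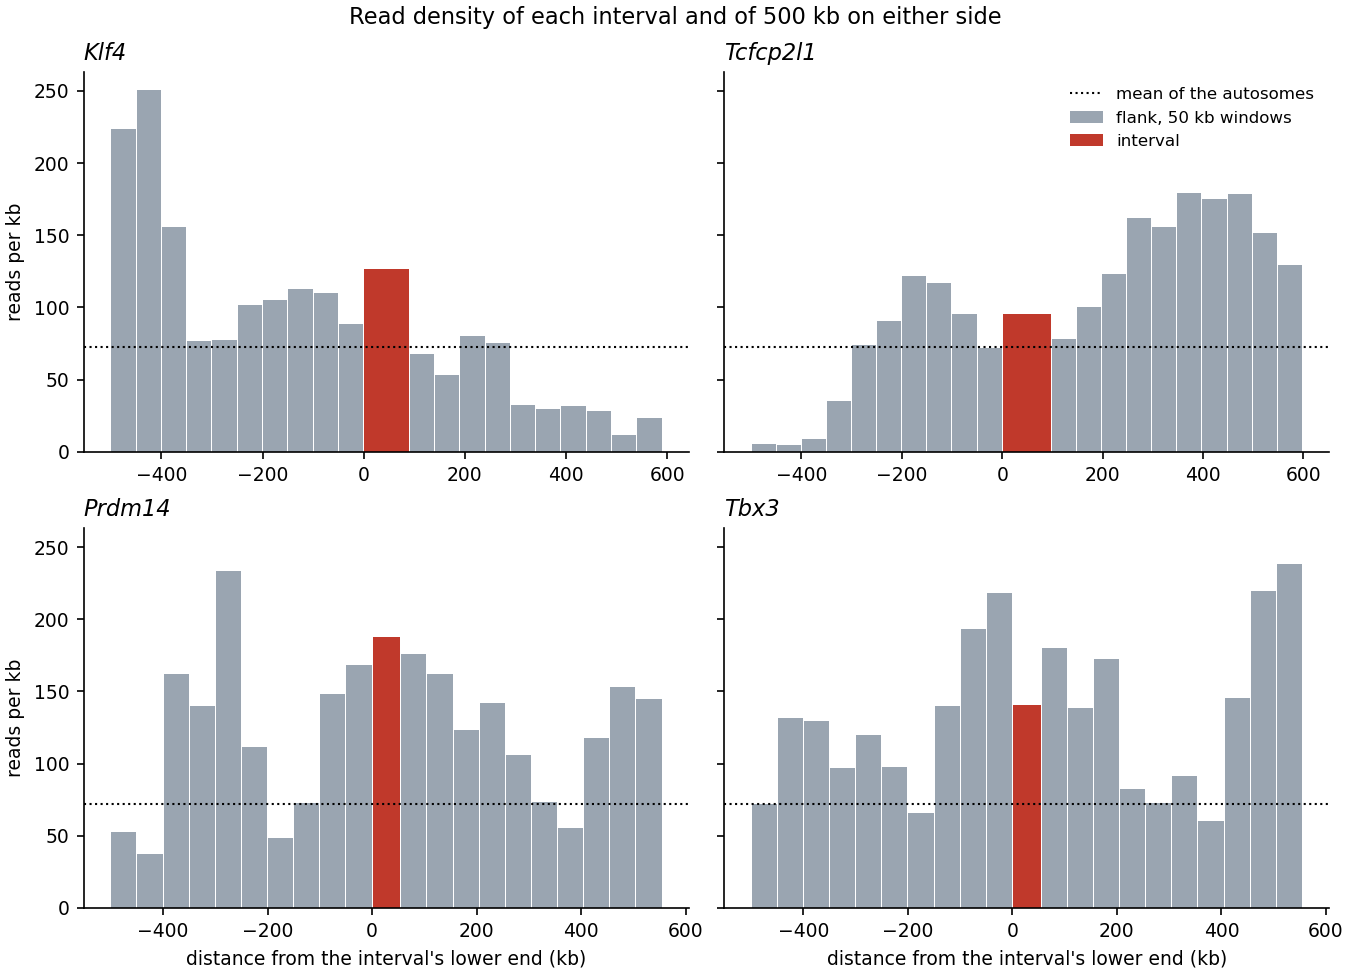
Read density in reads per kb (vertical axis) of each interval (red bar) and of 50 kb windows over 500 kb on either side (grey bars), by distance in kb from the interval's lower end. The dotted line is the autosomal mean of 72.2. Klf4 and Tcfcp2l1 each have a denser and a sparser flank, but both exceed the windows next to them. Prdm14 sits above all but 1 of its flank windows.

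Bins of 1 kb were next called high when they held at least 2 times the median of the 1000 flank bins of their own interval. At Klf4 that median was 46 reads, and 50 of 90 bins were high, 55.6% (44.7 to 66.0). The background was 32.3% of the flank bins and 23.4% of all autosomal bins at the same number of reads. The left flank alone had 50% and the right 14.6%. The left share lay inside the counting interval at Klf4, but it pooled the dense far windows with the sparser near ones. At Prdm14, with a flank median of 78, 25 of 55 bins were high, 45.5% (32.0 to 59.4). There the background was 29.1% of flank bins and 14.6% of autosomal bins, and neither flank alone exceeded 30.0%.

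At Tcfcp2l1, with a flank median of 62, 27 of 98 bins were high, 27.6% (19.0 to 37.5), with a background of 30.9% in both flanks together and 18.3% on the autosomes. Its sides had 17.2% and 44.6%, both outside that counting interval. The share fell by more than 1.5 times, to 16.3%, in bins of 2 kb and to 17.3% with flanks of 250 kb. Each setting also changes the threshold, and the background shares at these settings are not given. The fall is therefore not read as a change against the background. At Tbx3, with a flank median of 88, 15 of 55 bins were high, 27.3% (16.1 to 41.0), the same as the 27.3% of flank bins. The autosomal background at that number of reads was 12.7%. The count at Tbx3 was thus that of its surroundings, and at Tcfcp2l1 the share lay between those of its unlike sides.

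Low bins, those below 0.25 times the flank median, made up a smaller share than in both flanks together at each of the 4 genes. At Tbx3 that flank share lay inside the counting interval. They made up 8 of 90 bins at Klf4, 8.89% (3.92 to 16.8), against 24.6% in the flanks. At Tcfcp2l1 they were 9 of 98 bins, 9.18% (4.29 to 16.7), against 24.6%. At Prdm14 they were 5 of 55, 9.09% (3.02 to 19.95), against 20%, and the upper bound lay just below that value. Low bins made up 21.8% of its left flank and 18.2% of its right flank, the latter inside the counting interval. At Tbx3 they were 8 of 55, 14.5% (6.495 to 26.7), against 17.5%. For Klf4 and Tcfcp2l1 the low flank bins lay mostly on 1 side, with 36.2% low on the right of Klf4 and 40.6% on the left of Tcfcp2l1. The other side had 13.0% at Klf4 and 8.60% at Tcfcp2l1, near the intervals themselves.

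The Klf4 interval was uneven. Successive segments of 10 kb, from low to high coordinates, held 137.2, 96.1, 109.9, 134, 161.2, 129.8, 204.2, 73.1 and 95 reads per kb. The peak was the segment that ended at 55540000, and the next segment was the lowest. The longest unbroken run of high bins was chr4:55506001-55519000, 13 bins with 191 reads per kb. Its flanks held runs of up to 26 bins on the left and 6 on the right.

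The bin with the most reads at Klf4 was chr4:55535001-55536000, with 467 reads on 19 cytosines of 11 dyads, 8 of them listed on both strands. Its most-read pair of cytosines held 21.4% of its reads, so the signal there was spread over many CGs. The bin chr4:55553001-55554000 had 439 reads on 16 cytosines, of which 61.3% came from 2 cytosines. The third, chr4:55508001-55509000, had 340 reads on 21 cytosines, 11 of them outside CG. Flank bins with as many reads numbered 16, 22 and 42 of 1000.

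Gaps divided the Klf4 interval as well. The longest stretch without a listed cytosine was 2720 bases at chr4:55496089-55498808. The second was 2105 bases at chr4:55544549-55546653 and the third 1633 bases at chr4:55549388-55551020. Stretches as long as the first occurred 4 times in the left and 14 times in the right flank, and as long as the second 10 and 27 times. None of these stretches is shown to lack 5hmC, since neither the number of CGs in them nor how well reads map there was analysed here.

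The Tcfcp2l1 interval was sparse in its second segment of 10 kb and more even elsewhere. Its 10 kb segments held 91.5, 42.2, 108.3, 76.8, 102.5, 109.2, 105.6, 99.1 and 116.1 reads per kb, and the last 8 kb had 102. The second segment, which ended at 120524000, was the lowest, followed by the fourth. The bin with the most reads was chr1:120505001-120506000, with 471 reads on 23 cytosines. It was followed by chr1:120584001-120585000 with 416 reads on 27 cytosines and chr1:120581001-120582000 with 323 on 15. In the second of these, 12 of 15 dyads were listed on both strands. As many reads were found in 17, 30 and 61 of the 1000 flank bins.

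Runs at Tcfcp2l1 were short. The longest high runs had 4 bins, chr1:120527001-120531000 with 187 reads per kb and chr1:120568001-120572000 with 182. The flanks held runs of up to 6 bins on the left and 17 on the right. No 2 neighbouring bins were low, while the left flank had a low run of 25 bins. The first of the lone low bins was chr1:120507001-120508000, with 7 reads. The longest stretches without a listed cytosine were 1497 bases at chr1:120574020-120575516, 1438 at chr1:120561524-120562961 and 1358 at chr1:120592897-120594254. Stretches as long as the longest occurred 55 times on the left and 11 times on the right.

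At Prdm14 the segments of 10 kb held 113.7, 178.6, 230.8, 163.7 and 201.5 reads per kb, and the last 5 kb held 291. The density was thus lowest at the lower end and highest at the upper end of the interval. The bin chr1:13097001-13098000 had 988 reads, 12.7 times the flank median and 9.56% of the interval's reads. No flank bin reached it when all listed counts were summed. It held 24 cytosines of 13 dyads, 11 of them on both strands, but 42.8% of its reads came from 2 cytosines. Without that bin the ratio of the interval to both flanks was 1.43.

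The next bins at Prdm14 were chr1:13132001-13133000 with 695 reads on 29 cytosines and chr1:13109001-13110000 with 603 on 20. In the former the 2 most-read cytosines held 11.9% of the reads, and in the latter 49.4%. The longest high run, chr1:13130001-13135000, had 5 bins with 361 reads per kb. The flanks held longer ones, of up to 7 bins on the left and 8 on the right. Within the interval no low bin had a low neighbour, and the first of them, chr1:13083001-13084000, had 15 reads. The longest stretches without a listed cytosine were 1868 bases at chr1:13084415-13086282, 1290 at chr1:13093761-13095050 and 885 at chr1:13128742-13129626. Stretches as long as the first occurred 14 times in the left flank and 10 times in the right.

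At Tbx3 the segments of 10 kb held 105.6, 155.9, 146.4, 175.4 and 90.5 reads per kb, and the last 5 kb held 201. The bin with the most reads was chr5:120138001-120139000, with 519 reads on 38 cytosines of 24 dyads. It was followed by chr5:120125001-120126000 with 498 reads on 30 cytosines and chr5:120152001-120153000 with 484 on 36. In these 3 bins the most-read pair of cytosines held 16.4%, 14.5% and 17.8% of the reads. The high bins of Tbx3 were thus broad, with many CGs of moderate count. Flank bins with as many reads numbered 24, 26 and 30 of 1000.

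The longest low run at Tbx3 was chr5:120129001-120132000, with 3 bins and 27 reads in all, between bins with 210 and 28 reads. At Klf4 the longest low runs had 2 bins, chr4:55496001-55498000 with 6 reads and chr4:55544001-55546000 with 5. Low meant below 22 reads at Tbx3 and below 11.5 at Klf4, so run lengths are not ranked between the genes. The longest stretch without a listed cytosine at Tbx3, chr5:120128900-120130680 with 1781 bases, lay partly in its low run. As long a stretch occurred 6 times on the left and 8 times on the right. The others were 1557 bases at chr5:120120762-120122318 and 1340 at chr5:120148781-120150120. The longest high runs had 3 bins, chr5:120137001-120140000 with 437 reads per kb and chr5:120123001-120126000 with 341. The former held the bin with the most reads. High runs in the flanks reached 6 bins on the left and 13 on the right.

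Single cytosines showed how unevenly the reads fell on the strands. Some cytosines were listed as pairs on opposite strands, 21 to 25 bases apart, with equal or nearly equal counts. If such a pair stands for 1 set of reads, those reads are counted at both cytosines. The most-read cytosines at Klf4, Prdm14 and Tcfcp2l1 were of this kind. At Klf4 the minus-strand CG at position 55553222 had 135 reads and the plus-strand CG at 55553201, 21 bases away, had 134. Neither had a listed partner in its own dyad. The next were minus-strand cytosines at 55515960 with 63 reads, at 55529831 with 61, whose dyad partner had 45, and at 55481600 with 51, whose partner had 17. The count of 51 was shared with 1 other cytosine of the interval.

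At Prdm14 the minus-strand CG at position 13097613 had 214 reads and the plus-strand CG at 13097591, 22 bases away, had 209. Their dyad partners had 15 and 32 reads. A second pair, at 13109267 and 13109290, had 149 reads on each cytosine and 20 and 9 on the dyad partners. The plus-strand cytosine at 13112502, with 136 reads, had no listed partner. These 5 cytosines were the only ones over 76 reads in the interval, and they carried 8.29% of its reads.

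At Tcfcp2l1 the pair at positions 120581270 and 120581293 had 68 reads on each cytosine, with 8 and 18 on the dyad partners. The pair at 120505567 and 120505590 had 60 on each and no listed dyad partner. The fifth cytosine, at 120583306, had 51 reads and a partner with 18. Tbx3 had no such pair among its top sites, and its counts were lower. Its most-read cytosines were at 120128405 with 50 reads, at 120138777, 120139913 and 120152043 with 44 each, and at 120152024 with 42. The dyad partner of 120152043 had 38 reads, and that of 120138777 had 3.

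CG dyads listed on both strands were compared next. They made up 222 of 498 dyads at Klf4, 44.6% (40.2 to 49.1), and 189 of 418 at Prdm14, 45.2% (40.4 to 50.1). At Tcfcp2l1 they were 201 of 497, 40.4% (36.1 to 44.9), and at Tbx3 172 of 472, 36.4% (32.1 to 41.0). The autosomal share was 37.4%. The flanks had 43.6% and 26.3% at Klf4, 44.5% and 41.6% at Prdm14, 35.9% and 43.2% at Tcfcp2l1, and 36.8% and 38.1% at Tbx3. The right flank of Klf4 and the left flank of Tcfcp2l1, the sparser side of each, lay below the lower bound of their gene's share. Shares on both strands also fell when more reads were required of a site. A dyad then had to meet the minimum on each strand to count as both, so that fall does not measure an effect of depth. The part of depth in the differences was not tested.

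Within dyads listed on both strands, the strands' counts differed by more than 3-fold in 30.7% at Prdm14 (24.2 to 37.8). Its left flank had 24.2% (21.8 to 26.8), which overlapped that interval, and its right flank 20.6% (18.4 to 23.0). The other intervals had 23.9% at Klf4, 22.9% at Tcfcp2l1 and 22.7% at Tbx3, near the autosomal 22.3%. Dyads listed on both strands carried a median of 31 reads at Prdm14, 27 at Klf4, 24 at Tcfcp2l1 and 23 at Tbx3. Dyads listed on 1 strand carried 10, 9, 9 and 8.

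**Figure D3:**
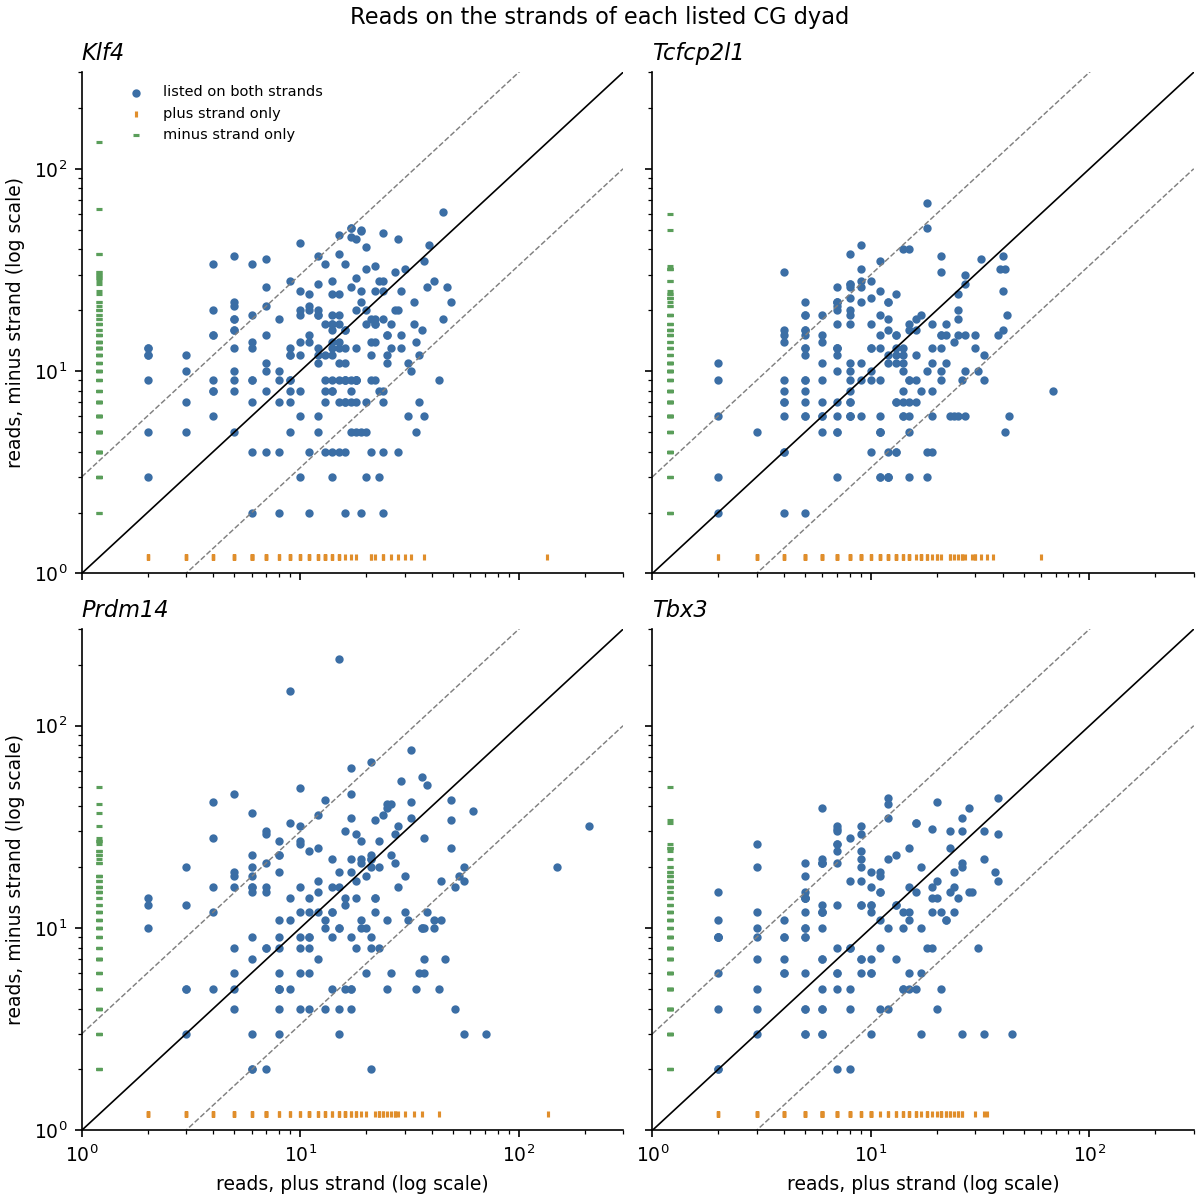
Reads on the plus strand (horizontal axis) and on the minus strand (vertical axis) of every CG dyad with a listed cytosine, both on log scales. Points are dyads listed on both strands and ticks along the axes are dyads listed on 1 strand. The solid line marks equal counts and the dashed lines a 3-fold difference. The counts scatter widely about equality, and 30.7% of the Prdm14 dyads listed on both strands lie beyond the dashed lines.

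Cytosines outside CG, together called CH, set Klf4 and Prdm14 apart from each other. At Klf4, 102 of 822 listed cytosines were CH, 12.4% (10.2 to 14.9), about as in its flanks with 14.01% and 11.8%. The autosomal share was 5.99%, and 81.1% of autosomal stretches of that length had a lower share. At Prdm14, 23 of 630 were CH, 3.65% (2.33 to 5.43), below both flanks with 7.84% (7.03 to 8.71) and 6.86% (6.14 to 7.63). Of autosomal stretches of the Prdm14 interval's length, 30.3% had a still lower share. Tcfcp2l1 had 6.81% (5.11 to 8.86) and Tbx3 5.29% (3.74 to 7.25), each overlapping its flanks.

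CH cytosines at Klf4 were spread over 38 of the 90 bins. The bin chr4:55508001-55509000 held 11 of them, and chr4:55517001-55518000 held 7. Of the 102, 65 were followed by A, 24 by T and 13 by C. They carried a median of 9 reads against 12 at CG, whereas the autosomal medians were 5 and 10. At Prdm14 the 23 CH cytosines had a median of 4 reads against 12 at CG. The sources used here do not say how the authors chose between CG and CH cytosines for a read, so these shares also reflect that choice.

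**Figure D4:**
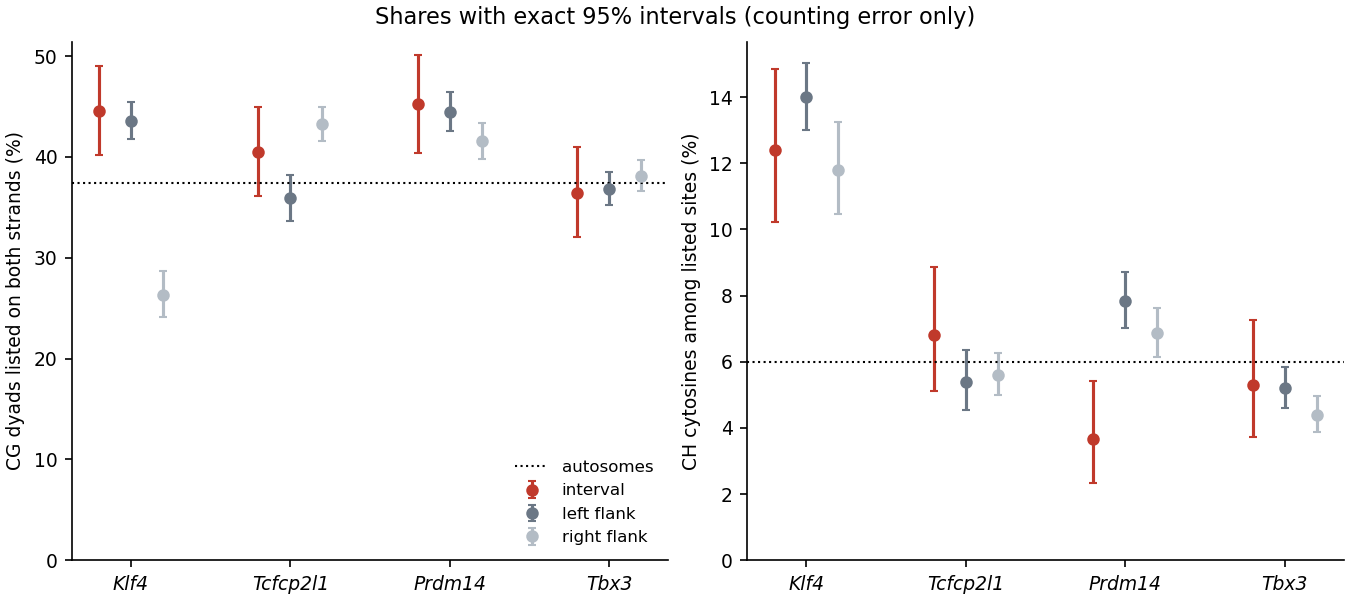
Share of listed CG dyads listed on both strands (left, in percent) and share of CH cytosines among listed sites (right, in percent) for each interval and its flanks, with exact 95% intervals for counting error. The dotted lines mark the autosomal shares of 37.4% and 5.99%. The right flank of Klf4 is lowest on the left, and the Prdm14 interval lies below both of its flanks on the right.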

How the data were processed

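Genomic DNA of E14 cells was measured in 2 libraries of 1 group. The authors deposited 1 pooled column of read counts, a whole number for each listed cytosine. The build mm9 and the tools Bowtie and CASAVA 1.8.2 are named, without their roles, per the submitters' processing notes. For read filters, PCR copies, the assignment of reads to cytosines and the joining of the libraries, the steps were not given in the sources used here.

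Positions were made 1-based. Sites were summed over each interval, over 500 kb on each side and in 1 kb bins counted from the interval's lower end. Bins without a site were entered as 0. Autosomal bins and stretches of an interval's length ran from the first to the last listed cytosine of each chromosome. Ratios carry the exact Clopper-Pearson interval of the share of reads or sites in the interval. Read totals are the depth, 176006227 in all. No test was made, since the table has no replicates. The text names, per interval, the 3 bins and 5 cytosines with the most reads, the 3 longest stretches without a listed cytosine and the longest high and low runs. Where lone low bins tied for the longest run, the first is named, and of longer tied runs all are. The members, intervals and lists were chosen with earlier results of these data known. Alternatives covered the minimum count, counting sites once, very high sites, weights of paired classes, bins and flanks. Functions were tested on simulated sites. Python 3.11.15, numpy 2.4.6, pandas 2.3.3, scipy 1.17.1 and matplotlib 3.10.9 were used.

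RefSeq's gene table is of GRCm38.p6, so none of its coordinates were used. It gave the symbol Tfcp2l1 for Tcfcp2l1 and the strands of both promoters.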

Additional observations from a re-analysis of the deposited data

How the results depend on the processing

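Over 12 results and 76 alternatives, 39 values stayed within the exact counting interval of the reported value, 35 moved outside it and 2 changed direction. Those 2 were the ratio of reads per kb against the left flank alone, 0.973 at Klf4 (1.46 against both) and 1.52 at Tcfcp2l1 (0.925 against both). Against the right flank alone the ratio was 2.93 at Klf4, 0.664 at Tcfcp2l1, 1.5 at Prdm14 and 1.01 at Tbx3, and against the left 1.6 at Prdm14 and 1.11 at Tbx3. These choices of side, the restriction to CG and the loss of a bin were made after seeing the data. With at least 10 reads per site the ratio was 1.55 at Klf4, 0.898 at Tcfcp2l1, 1.64 at Prdm14 and 1.02 at Tbx3. With each site counted once it was 1.35, 0.993, 1.33 and 1.17 in that order. With flanks of 250 kb it was 1.53 at Klf4, 0.853 at Tcfcp2l1 and 1.49 at Prdm14. Paired classes at a weight of 0.5 gave 1.51 at Klf4 and 1.09 at Tbx3. Without the 0.1% of sites with the most reads (above 168) it was 1.52 at Prdm14 and 1.09 at Tbx3, and with CG alone 1.6 at Prdm14. Without the interval's bin with the most reads it was 1.42 at Klf4, 0.887 at Tcfcp2l1, 1.43 at Prdm14 and 1.0 at Tbx3. The share of high bins was 44.4% at Klf4 with each site counted once, and at Tcfcp2l1 16.3% in bins of 2 kb and 17.3% with flanks of 250 kb. The background shares of high bins at these settings are not given. Dyads on both strands made up 39.9% at Klf4 and 31.5% at Tbx3 with at least 5 reads, and 31.2% at Klf4, 23.2% at Tcfcp2l1, 32.7% at Prdm14 and 24.4% at Tbx3 with at least 10. The cause of these moves was not tested, except that a higher minimum leaves fewer sites. No paired analysis was possible because the table pools the libraries, and for the same reason no library could be left out.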

Other observations

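At Klf4, Tcfcp2l1 and Tbx3 the flanks held 1 kb bins with more reads than any bin of the interval. The 1 kb bin with the most reads within 500 kb of Klf4 had 1682 reads, in its left flank, against 467 in the interval. The highest flank bins were 933 reads at Tcfcp2l1, 923 at Prdm14 and 842 at Tbx3, against 471, 988 and 519 in the intervals. Prdm14 was thus the one gene of the 4 whose interval held the highest bin of its surroundings, as counted here. That bin held an opposite-strand pair with 214 and 209 reads, which may be 1 set of reads counted at both cytosines. Bins with such reads counted once were not compared. Bins without a listed cytosine made up 3.33% at Klf4, 1.02% at Tcfcp2l1, 3.64% at Prdm14 and 5.45% at Tbx3, against 27.3% of autosomal bins. The left and right flanks had 6.4% and 17.4% at Klf4, 24.6% and 2.6% at Tcfcp2l1, 7.4% and 8% at Prdm14, and 3.4% and 5.2% at Tbx3.

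Plus-strand cytosines with a minus-strand cytosine 21 to 25 bases to the right made up 14.2% at Klf4, 12.2% at Tcfcp2l1, 13.6% at Prdm14 and 15% at Tbx3, near their flanks with 16.2%, 11.4%, 12.3% and 14.5%. Equal counts were found in 42 of 56 such cases at Klf4, 32 of 46 at Tcfcp2l1, 21 of 43 at Prdm14 and 36 of 51 at Tbx3. These are 75%, 69.6%, 48.8% and 70.6%, against 72.2%, 63.8%, 63.98% and 66.02% in the flanks. The value was below the flanks at Prdm14 and above them at the others. The shares rest on few cases and have no counting interval here, so no difference is read from them. The class 2CG carried 6.43% of the reads at Klf4 and 9.82% at Tbx3, against 12.6% and 16.9% in their flanks and 14.3% on the autosomes. At Tcfcp2l1 it carried 11.2% and at Prdm14 13.4%.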
